A study of Mus musculus with 12 samples.

Results

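The genes described here encode the enzymes and regulators of cholesterol and fatty acid synthesis. A list of names, with no threshold on values, defined them, and it comprised 31 genes of the 31054 gene identifiers in the count tables. All 31 passed the filter on low counts, which kept 13141 genes. By role, 20 belonged to the sterol branch (the mevalonate pathway, the steps from squalene to cholesterol, and a sterol carrier), 5 were regulators of both branches, and 6 belonged to the fatty acid branch. RNA was sequenced from dendritic cells of C57BL6 wild-type mice, grown out of bone marrow and enriched on day 7 for live cells carrying CD11c, an integrin chain of dendritic cells. The 4 groups, with 3 libraries each, were untreated cells (BMDC), such cells given lipopolysaccharide (BMDC with LPS), tolerogenic cells made with VitD/IL10 (TolDC), and tolerogenic cells given LPS (TolDC with LPS). LPS is a bacterial cell wall component sensed by Toll-like receptors, and vitamin D3 with interleukin 10 is a treatment that makes dendritic cells restrain T cell responses. VitD and IL10 were used together, so the effect of one cannot be told apart from that of the other, and no source used here gives the doses or how long LPS was applied.

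Cells make cholesterol from acetyl-CoA. The mevalonate pathway builds isoprenoid units, which are joined to farnesyl diphosphate, a branch point that also feeds the lipid anchors of small GTPases, ubiquinone and dolichol. Paired farnesyl units give squalene, which is oxidised, closed to lanosterol and trimmed to cholesterol. Fatty acid synthesis starts from the same acetyl-CoA and ends with elongation and desaturation. Transcription of both branches is driven by the sterol regulatory element-binding proteins (SREBPs), with SREBP2 (Srebf2) acting mainly on sterol genes and SREBP1 (Srebf1) mainly on fatty acid genes. SCAP carries SREBPs out of the endoplasmic reticulum when sterols are low, and the INSIG proteins hold SCAP there when sterols are high. In myeloid cells, sterol synthesis and its intermediates are known to change during Toll-like receptor signalling.

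The promoters of the sterol genes shared short motifs of the factors known to work beside SREBPs. In the RefSeq promoter table (GRCm38.p6), which covers 250 bases before to 50 bases after each start, 25 of the 31 genes had a window. No entry was matched for Fdps, Fdft1, Sqle, Stard4, Scd1 and Scd2. The NF-Y box, CCAAT on either strand, was found for 15 of 16 sterol genes (93.8%), 4 of 5 regulators (80%) and 2 of 4 fatty acid genes (50%), against 41.1% of the 27025 genes in the table. The Sp1 box, GGGCGG on either strand, was found for 14 of 16 sterol genes (87.5%), 5 of 5 regulators and 1 of 4 fatty acid genes (25%), against 38.2% of all genes. An exact sterol regulatory element-like motif, TCACNCCAC on either strand, was found for 1 of the 25 genes with a window, Hmgcs1, against 1.44% of all genes. These matches are descriptions of letters and not of bound sites. Genes with several starts had several windows, and a gene counted once if any of them held the motif. By window, the NF-Y box was in 15 of 19 for sterol genes (78.9%) and 5 of 10 for regulators (50%), against 37.4% of all windows. The Sp1 box was in 15 of 19 (78.9%) and 8 of 10 (80%), against 35.7%. The genes in the table were not limited to those tested here. Overlapping matches of 1 motif on the 2 strands were each counted.

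The promoters of 6 genes that the results turn on are printed below, from 150 bases before the start to 20 bases after it, on the strand of the gene. They show the gene with the sterol regulatory element-like motif, the gene with the largest difference between the cultures, 3 genes whose response to LPS depended on the culture, and the synthase of the fatty acid branch. Capitals mark CCAAT or its reverse complement ATTGG and, in Hmgcs1, the sterol regulatory element-like motif.
Hmgcs1 (chr13:119690201-119690370, plus strand): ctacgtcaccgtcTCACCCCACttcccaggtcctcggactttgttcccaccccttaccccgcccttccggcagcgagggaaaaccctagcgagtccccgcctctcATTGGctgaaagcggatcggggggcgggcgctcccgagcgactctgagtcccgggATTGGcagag
Idi1 (chr13:8885456-8885625, plus strand): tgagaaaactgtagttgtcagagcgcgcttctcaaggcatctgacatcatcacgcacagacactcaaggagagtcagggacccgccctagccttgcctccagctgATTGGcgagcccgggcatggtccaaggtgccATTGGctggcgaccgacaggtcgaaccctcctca
Mvd (chr8:122443403-122443572, minus strand): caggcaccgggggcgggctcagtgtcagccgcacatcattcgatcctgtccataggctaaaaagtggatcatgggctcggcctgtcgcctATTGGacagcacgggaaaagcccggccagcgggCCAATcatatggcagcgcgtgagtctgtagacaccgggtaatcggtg
Lss (chr10:76531455-76531624, plus strand): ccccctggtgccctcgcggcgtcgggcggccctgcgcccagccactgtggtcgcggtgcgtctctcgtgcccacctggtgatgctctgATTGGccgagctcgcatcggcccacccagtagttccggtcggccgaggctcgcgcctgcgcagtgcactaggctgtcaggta
Sc5d (chr9:42264281-42264450, minus strand): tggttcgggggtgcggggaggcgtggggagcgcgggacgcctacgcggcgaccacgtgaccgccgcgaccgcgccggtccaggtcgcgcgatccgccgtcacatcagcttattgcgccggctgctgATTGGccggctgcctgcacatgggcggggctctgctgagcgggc
Fasn (chr11:120824528-120824697, minus strand): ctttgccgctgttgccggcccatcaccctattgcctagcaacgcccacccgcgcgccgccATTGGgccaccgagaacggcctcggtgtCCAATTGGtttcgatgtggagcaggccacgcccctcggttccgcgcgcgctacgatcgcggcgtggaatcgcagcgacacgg
Idi1, Hmgcs1 and Mvd each held 2 NF-Y boxes in this stretch, Lss and Sc5d 1 each, and Fasn 3, of which 2 overlap.

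The libraries held 21844405 to 41764975 reads assigned to genes, so that 3 counts corresponded to 0.0718 to 0.137 CPM (counts divided by the TMM-adjusted library total and put on a common scale). LPS parted the libraries on the leading principal component (50.9% of the variance) and the culture on the next (36.2%). The 4 libraries numbered 1 stood apart from those numbered 2 and 3 on the fourth (2.75%), with 15.3% of all genes called between them. Among the 31 genes, 4 were called higher and 3 lower in libraries numbered 1, with log2 differences from −0.85 (Elovl6) to 0.16 (Scd1). Libraries numbered 2 and 3 of a group differed by a chi-square of 1.35 to 2.32 per degree of freedom, against 5.17 to 11.6 for pairs that held number 1. The labels do not state whether the 3 libraries of a group are separate animals or cultures, so the p-values reflect the spread among libraries, which could be technical. The 7 dendritic cell markers summed to 6939 to 7296 CPM in BMDC, 10048 to 11585 in BMDC with LPS, 8035 to 8484 in TolDC and 10067 to 12060 in TolDC with LPS. Of these, Cd209a, a lectin of monocyte-derived dendritic cells, had 5 counts or fewer in each BMDC library, 1 in each with LPS and 0 in both TolDC groups, too few to be tested, while H2-Ab1, an MHC class II gene named after its values were seen, was higher in TolDC (1.30 ± 0.05 without LPS and 1.37 ± 0.05 with it, edgeR adjusted p = 2.26e-13 and 8.05e-14). The markers did not move together. In unscaled counts, Zbtb46 had 955, 1009 and 683 in BMDC and 468, 427 and 411 in TolDC. With LPS it had 1967, 1310 and 1398 in BMDC and 550, 438 and 672 in TolDC. Flt3 was scarce, with 18, 28 and 18 counts in BMDC and 8, 4 and 6 in TolDC. H2-Aa went with H2-Ab1, at 13210, 13857 and 10952 counts in BMDC and 28484, 25768 and 30070 in TolDC. The 8 granulocyte markers summed to 596 to 2494 CPM in BMDC, 328 to 1606 in BMDC with LPS, 121 to 614 in TolDC and 164 to 484 in TolDC with LPS. Macrophage and monocyte markers (6) summed to 803 to 838, 979.7 to 1404, 856 to 872 and 1508 to 1916 CPM in the same order. These sums hide markers that went opposite ways between the cultures. Adgre1 had 887, 1232 and 947 unscaled counts in BMDC and 3111, 3069 and 3603 in TolDC. Mertk had 4586, 4233 and 3051 in BMDC and 1514, 1327 and 1553 in TolDC. Fcgr1 had 553, 553 and 425 in BMDC and 152, 160 and 181 in TolDC. Mast cell and basophil markers summed to 26.3 to 239 CPM and eosinophil markers to 35.7 to 279.6 CPM in a library, while those of T and NK cells, B cells, erythroid cells and fibroblasts each stayed at or below 5.38 CPM. The part of these cells in the differences below was not tested. In each group the library numbered 1 had the lowest sum of granulocyte, of mast cell and basophil, and of eosinophil markers. Counts of sterol genes called higher or lower are also given without the libraries numbered 1, which keeps the libraries richer in these markers. Those counts therefore do not address the part of these cells. Vdr, the vitamin D receptor gene, was at 324 ± 19.2 CPM in BMDC and 516 ± 25.7 CPM in TolDC (SD, n = 3). Il6, a cytokine gene induced by LPS, was at 4.90 ± 0.658 CPM in BMDC and 463 ± 11.6 CPM in BMDC with LPS (SD, n = 3); TolDC had 3.85 ± 1.38 CPM and TolDC with LPS 280 ± 11.7 CPM.

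Cholesterol synthesis transcripts were most abundant in untreated BMDC. Of the 20 sterol genes, 16 had their highest group mean in BMDC, 3 in BMDC with LPS, 1 in TolDC and 0 in TolDC with LPS. The lowest mean lay in TolDC with LPS for 10 and in TolDC for 7. The 6 fatty acid genes had their highest mean in BMDC for 4 and their lowest in TolDC with LPS for 5. The shares of all genes with their highest or lowest mean in each group were not computed. These counts therefore only describe the listed genes and do not set them apart from other genes. Added over the 20 sterol genes, the level was 565 to 574 CPM in the 3 BMDC libraries, 402 to 423 in BMDC with LPS, 359 to 369 in TolDC and 334 to 339 in TolDC with LPS, and no 2 groups overlapped. In bulk RNA, fewer cells of a type and less RNA per cell cannot be told apart.

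**Figure D1:**
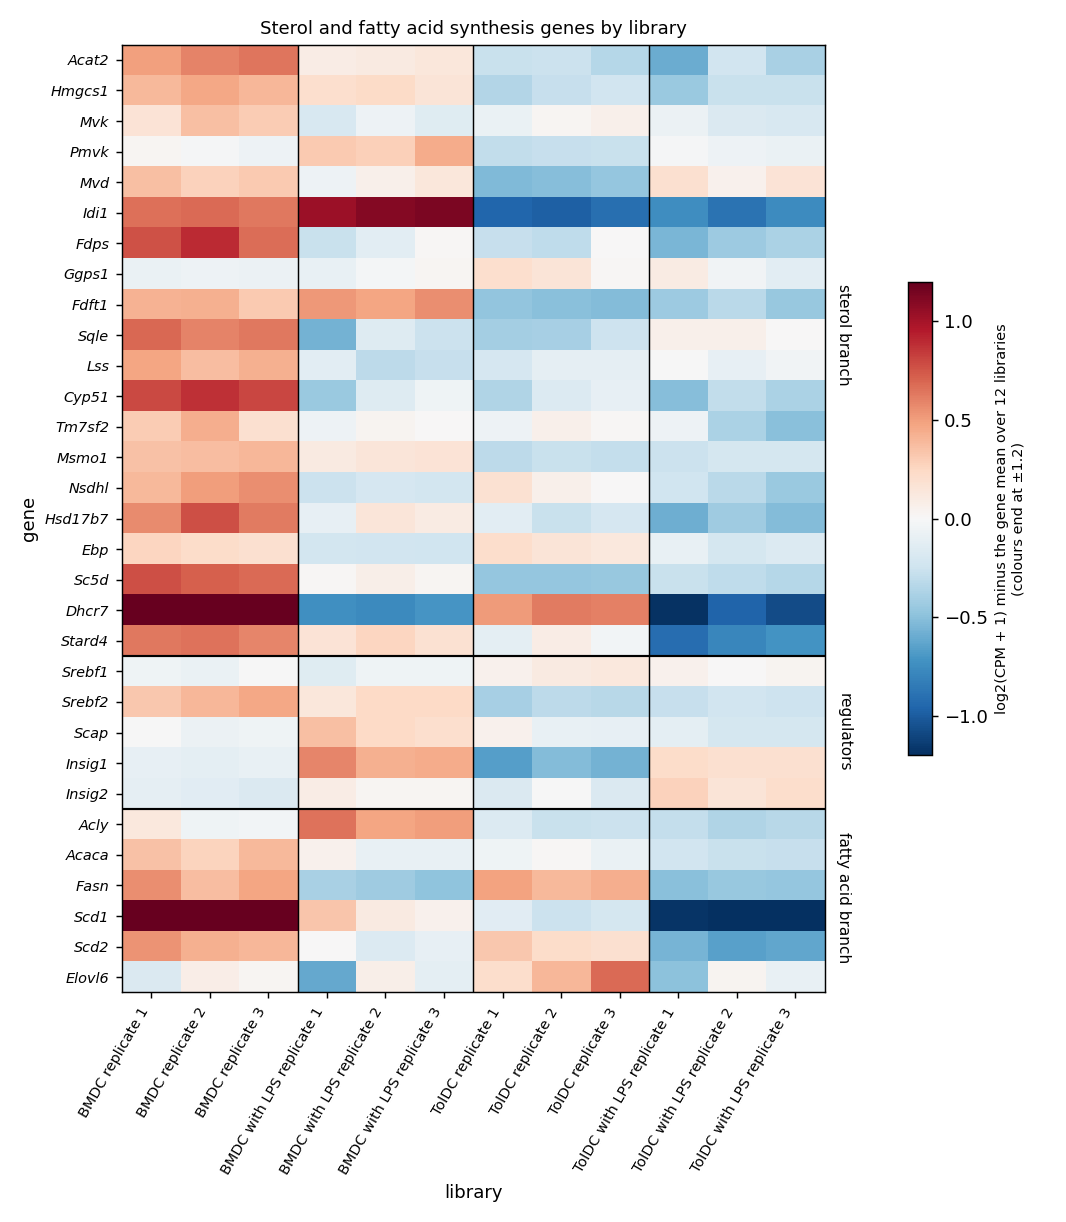
Each row is 1 of the 31 genes and each column 1 of the 12 libraries, and the colour gives log2(CPM + 1) minus the mean of the gene over the libraries, with the colour scale closed at both ends. Most sterol genes are darkest red in the 3 BMDC libraries, Idi1 and Fdft1 stay red in BMDC with LPS, and Fasn and Scd2 are red in both groups without LPS.

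TolDC had lower sterol synthesis transcripts than BMDC when neither had received LPS. The edgeR quasi-likelihood test over all 13141 genes, called at an adjusted p below 0.05, found 18 of the 20 sterol genes lower and 1, Ggps1, higher, while Ebp was not called. Across all genes, 62.4% were called in this comparison, 32.0% higher and 30.4% lower. The median log2 change of the sterol genes was −0.70, against 0.01 over all genes, and 5 of the 20 were lower by at least 2-fold, against 8.03% of all genes. Of the fatty acid genes, 4 of 6 were lower and 1 higher, and of the regulators 2 of 5 were lower and 1 higher. Without the 4 libraries numbered 1, the sterol genes again gave 18 lower and 1 higher. In the same comparison the 16 proliferation genes gave 12 higher and 0 lower (median log2 change 0.48), and their part in the result was not tested.

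LPS lowered most sterol genes in BMDC. In that comparison 16 of 20 were lower, 3 higher (Pmvk, Idi1 and Fdft1) and 1 not called (Ggps1), with a median log2 change of −0.46. Of all genes, 73.2% were called, 36.7% higher and 36.4% lower, with a median of −0.00. Lower by at least 2-fold were 4 of the 20 sterol genes (Fdps, Sqle, Cyp51 and Dhcr7), against 11.0% of all genes. The fatty acid genes gave 4 lower and 1 higher of 6 (median −0.49), and the regulators 3 higher and 1 lower of 5. Without the libraries numbered 1 the counts were again 16 lower and 3 higher for the sterol genes. Of the 16 proliferation genes, 14 were lower and 1 higher (median −1.50), and their part was not tested.

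In TolDC, where the sterol genes started lower, LPS gave a mixed picture. There, 8 of 20 sterol genes fell, 4 rose and 8 were not called, with a median of −0.14, while 5 of the 6 fatty acid genes fell and 0 rose (median −0.89). Fatty acid genes outside these 6 did not fall as a set: of 20 tested, 7 rose and 5 fell (median 0.00). Of all genes, 71.3% were called, 35.4% higher and 35.9% lower, with a median of −0.00. Lower by at least 2-fold was 1 of the 20 sterol genes, Dhcr7, against 10.6% of all genes. Scaling by library size alone, which shifts the median of all genes by −0.10 here, gave 3 higher and 10 lower sterol genes. Without the libraries numbered 1, the sterol genes gave 4 higher and 9 lower, with DESeq2 4 higher and 6 lower, and with libraries 2 and 3 of each group summed into 1, a setting added after seeing the data, 4 higher and 5 lower. All 16 proliferation genes fell (median −2.79).

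The difference between the LPS responses, TolDC minus BMDC, was itself tested. It was positive for 10 of the 20 sterol genes and negative for 1, Stard4, with a median of 0.30. Of all genes, 44.4% were called, 20.4% positive and 24.0% negative. Among the fatty acid genes, 2 of 6 were negative (Acly and Scd2) and 0 positive. Positive differences were not particular to the sterol branch. Of 20 other fatty acid genes tested, 8 were positive and 2 negative (median 0.27). Genes of liver X receptors and sterol export or storage gave 9 positive and 3 negative of 15 (median 0.49). The 15 genes that use isoprenoids gave 5 positive and 4 negative (median −0.02). Without the libraries numbered 1 the sterol genes gave 10 positive and 2 negative. DESeq2, an alternative tool, called 7 positive and 1 negative. With the libraries numbered 2 and 3 summed, 6 were positive and 1 negative. The proliferation genes were negative in 16 of 16 cases (median −1.12).

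With LPS in both cultures, TolDC again had the lower sterol transcripts, with a median closer to 0. Of the 20 sterol genes, 12 were lower, 2 (Sqle and Lss) higher and 6 not called, with a median of −0.37. Of all genes, 67.9% were called, 34.3% higher and 33.7% lower, with a median of 0.02. Lower by at least 2-fold were 2 of the 20 sterol genes (Idi1 and Stard4), against 9.50% of all genes. The fatty acid genes gave 4 lower and 0 higher of 6, and the regulators 3 lower and 2 higher of 5. Without the libraries numbered 1 there were 13 lower and 2 higher sterol genes. Of the 16 proliferation genes, 12 were lower and 0 higher (median −0.55), and their part was not tested. The comparisons share groups: BMDC enters both the LPS contrast in BMDC and the culture contrast without LPS, so a high BMDC level lowers both. BMDC also enters the difference between the LPS responses, which a high BMDC level raises.

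**Figure D2:**
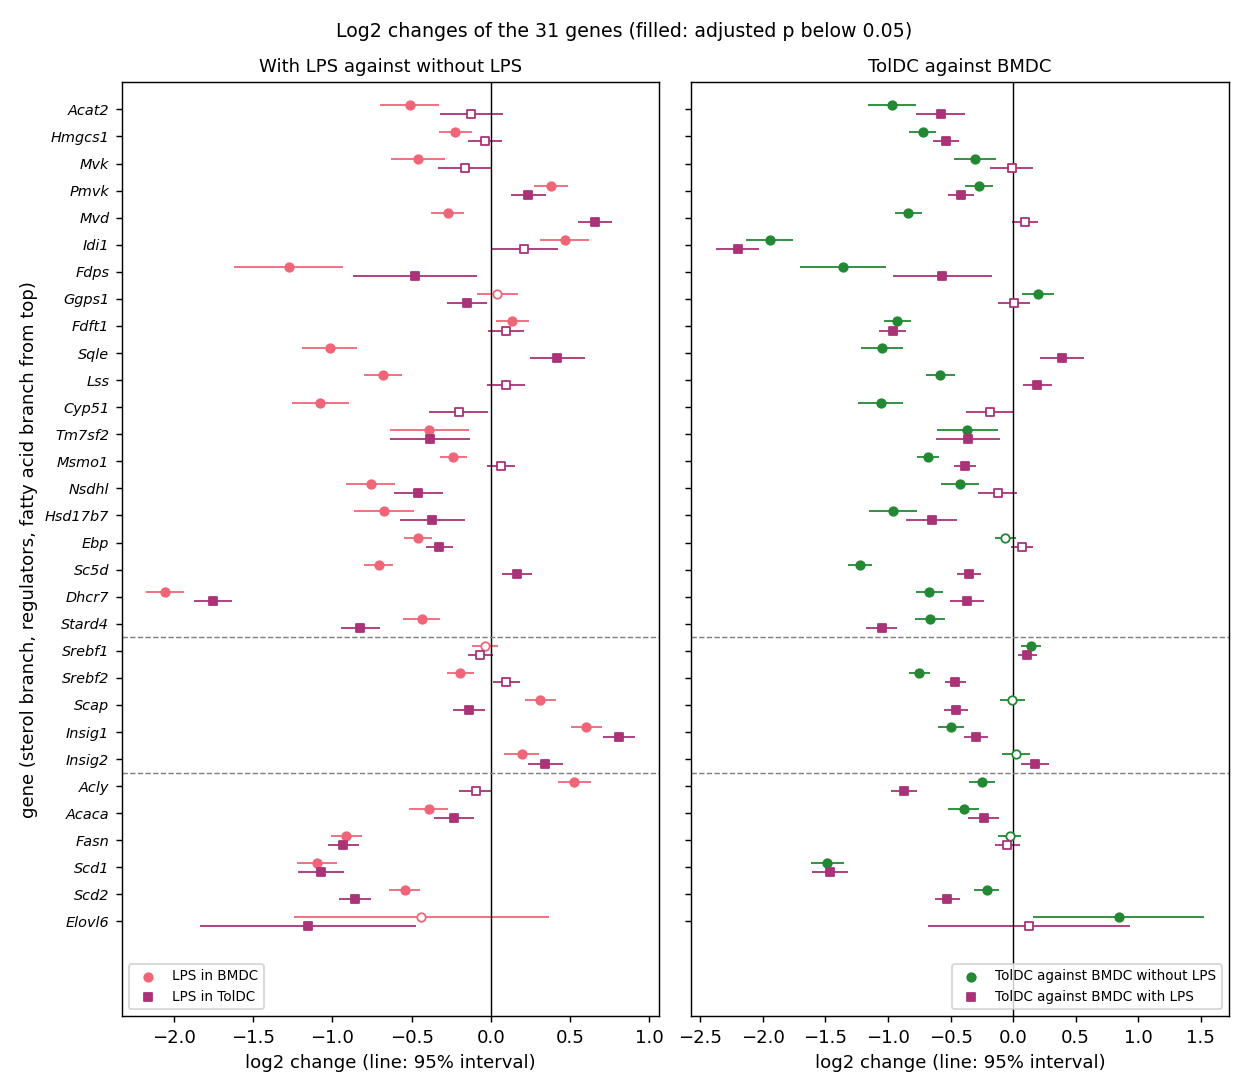
Log2 changes (edgeR, 3 libraries per group) are shown for the 31 genes, with approximate 95% intervals from the SE and a normal quantile. The left panel gives LPS in BMDC (circles) and in TolDC (squares). The right panel gives TolDC against BMDC without LPS (circles) and with LPS (squares). Open symbols mark genes that were not called. Sqle, Mvd and Sc5d lie on opposite sides of 0 in the 2 cultures, Dhcr7 lies far to the left in both, and Idi1 has the lowest values at right.

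Transcripts for the first steps of the mevalonate pathway were lower in TolDC than in BMDC without LPS. Hmgcs1, which condenses acetyl-CoA with acetoacetyl-CoA (ENSMUSG00000093930, chromosome 13, 119690379 to 119708260 on the plus strand of GRCm38; all 31 genes are protein coding), was at 46.4, 48.8 and 46.6 CPM in BMDC, 40.5, 41.5 and 39.3 in BMDC with LPS, 27.3, 28.9 and 29.7 in TolDC, while TolDC with LPS had 25.5, 29.0 and 29.0. The TolDC groups overlapped each other and lay below both BMDC groups. TolDC differed from BMDC by −0.72 ± 0.05 (log2 change ± SE, edgeR adjusted p = 1.19e-09), and LPS lowered the gene in BMDC by −0.23 ± 0.05 (edgeR adjusted p = 0.000838). The difference between its LPS responses was 0.19 ± 0.08 and was not called (edgeR adjusted p = 0.0558), but was without TolDC replicate 3 (0.22) or TolDC with LPS replicate 1 (0.24), at edgeR adjusted p of 0.0458 and 0.00872. Acat2, the thiolase that makes acetoacetyl-CoA, showed the same order of groups, with means of 12.1 ± 0.707, 8.51 ± 0.153, 6.21 ± 0.222 and 5.69 ± 0.847 CPM (SD, n = 3) in BMDC, BMDC with LPS, TolDC and TolDC with LPS. Acat2 shares 45.9% of its 50-base words with genes elsewhere, mainly Acat3, so its level is uncertain. Mevalonate kinase, Mvk, fell with LPS in BMDC (−0.46 ± 0.09) and was lower in TolDC than in BMDC without LPS (−0.31 ± 0.09), while with LPS the cultures differed by −0.01 ± 0.09, which was not called (edgeR adjusted p = 0.907). Its neighbour in the pathway, Pmvk, which phosphorylates mevalonate again, rose with LPS in both cultures, by 0.38 ± 0.06 and 0.24 ± 0.06.

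Mvd, the decarboxylase that ends the mevalonate pathway, answered LPS in opposite directions. The gene (ENSMUSG00000006517, chromosome 8, 122433601 to 122443422, minus strand) was at 49.1, 46.3 and 47.7 CPM in BMDC and at 36.6, 40.0 and 42.1 CPM in BMDC with LPS. The TolDC libraries had 26.2, 26.4 and 27.5 CPM, and 43.9, 39.7 and 42.8 CPM with LPS. The 3 TolDC libraries were the lowest, and the 2 groups with LPS overlapped. LPS changed it by −0.27 ± 0.05 in BMDC (edgeR adjusted p = 0.000152) and by 0.66 ± 0.05 in TolDC (edgeR adjusted p = 2.93e-09), and the responses differed by 0.93 ± 0.08 (edgeR adjusted p = 1.71e-08). With LPS the cultures differed by 0.09 ± 0.05, which was not called (edgeR adjusted p = 0.124) but was without BMDC with LPS replicate 3 or TolDC with LPS replicate 2 (0.13 to 0.14, edgeR adjusted p = 0.0382 to 0.0463).

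Idi1, the isomerase that makes the reactive isoprenoid unit, differed most between the cultures. Idi1 (ENSMUSG00000058258, chromosome 13, 8885501 to 8892451, plus strand) was at 9.63, 9.72 and 9.38 CPM in BMDC and at 12.7, 13.4 and 13.7 CPM in BMDC with LPS. In TolDC it was at 2.46, 2.41 and 2.57 CPM, and at 3.00, 2.62 and 2.97 CPM with LPS. Every TolDC library, with or without LPS, lay below every BMDC library. TolDC had 3.86-fold less than BMDC without LPS (log2 change −1.95 ± 0.10, edgeR adjusted p = 2.59e-12) and 4.60-fold less with LPS (−2.20 ± 0.09, edgeR adjusted p = 1.08e-13). In BMDC it rose with LPS by 0.47 ± 0.08 (edgeR adjusted p = 3.3e-05), while most sterol genes fell. In TolDC its change of 0.21 ± 0.11 was not called (edgeR adjusted p = 0.141). Idi1 shares 21.3% of its 50-base words with genes elsewhere, mainly Gm13502.

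Among the enzymes that join isoprenoid units, the squalene synthase transcript was lower in TolDC with and without LPS. Fdft1, the squalene synthase (ENSMUSG00000021273, chromosome 14, 63145150 to 63179578, minus strand), was at 30.4, 30.7 and 28.3 CPM in BMDC, 32.8, 31.8 and 33.7 in BMDC with LPS, 16, 15.6 and 15.5 in TolDC, while TolDC with LPS had 16.4, 17.8 and 16.2. The TolDC libraries lay below all BMDC libraries, by −0.92 ± 0.06 without LPS (edgeR adjusted p = 6.28e-11) and −0.96 ± 0.06 with it (edgeR adjusted p = 1.85e-11). Its rise with LPS in BMDC was small, 0.13 ± 0.05 (edgeR adjusted p = 0.0299), and was lost without BMDC replicate 3, BMDC with LPS replicate 1 or BMDC with LPS replicate 3 (0.11 to 0.13, edgeR adjusted p = 0.0573 to 0.113). Fdps, which makes farnesyl diphosphate, had means of 3.90 ± 0.393 CPM in BMDC, 1.62 ± 0.258 in BMDC with LPS, 1.51 ± 0.313 in TolDC and 1.08 ± 0.124 in TolDC with LPS. Its falls with LPS in BMDC (−1.28 ± 0.18) and in TolDC against BMDC (−1.36 ± 0.17) were called. Fdps counts are uncertain, because 51.1% of its 50-base words occur in genes elsewhere, mainly Gm3571, and 77.3% in overlapping genes on the same strand, mainly Gm43738. For LPS in TolDC (−0.48 ± 0.20, edgeR adjusted p = 0.0405) the Fdps call was lost without TolDC replicate 3, TolDC with LPS replicate 1 or TolDC with LPS replicate 2 (edgeR adjusted p = 0.065 to 0.264). For TolDC against BMDC with LPS (−0.56 ± 0.20, edgeR adjusted p = 0.0192) it was lost without BMDC with LPS replicate 3 or TolDC with LPS replicate 1 (edgeR adjusted p = 0.0656 to 0.0923).

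Ggps1, which makes the geranylgeranyl anchor of small GTPases and stands outside the line to cholesterol, moved little. Its group means were 22.4 ± 0.134, 23.0 ± 0.889, 25.7 ± 1.75 and 23.1 ± 1.88 CPM (SD, n = 3) in BMDC, BMDC with LPS, TolDC and TolDC with LPS. The call of higher Ggps1 in TolDC without LPS (0.20 ± 0.07, edgeR adjusted p = 0.0124) was lost without BMDC replicate 3 or TolDC replicate 1 (edgeR adjusted p = 0.0514 to 0.0657). The call of lower Ggps1 with LPS in TolDC (−0.15 ± 0.06, edgeR adjusted p = 0.0403) was lost without BMDC replicate 3, TolDC replicate 1 or 2, or TolDC with LPS replicate 2 or 3 (edgeR adjusted p = 0.0657 to 0.218). The difference of its LPS responses (−0.19 ± 0.09) was not called with all 12 libraries. With 1 library left out, it was called only without TolDC replicate 3 or TolDC with LPS replicate 1 (edgeR adjusted p = 0.0259 to 0.0396).

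Transcripts for the oxidation and closure of squalene differed between BMDC and TolDC in their change with LPS. Sqle, the squalene epoxidase (ENSMUSG00000022351, chromosome 15, 59315077 to 59331192, plus strand), was at 24.1, 22.5 and 23.2 CPM in BMDC and at 9.57, 13.0 and 12.1 CPM in BMDC with LPS. The TolDC levels were 10.7, 10.9 and 12.1 CPM, and 15.2, 15.3 and 14.6 CPM with LPS. Both the BMDC libraries with LPS and the untreated TolDC libraries lay far below untreated BMDC, and the TolDC libraries with LPS lay between. LPS lowered Sqle 2.02-fold in BMDC (−1.02 ± 0.09, edgeR adjusted p = 4.59e-09) and raised it 1.34-fold in TolDC (0.42 ± 0.09, edgeR adjusted p = 0.000342). The responses differed by 1.44 ± 0.12 (edgeR adjusted p = 3.41e-08), the largest difference among the 31 genes. TolDC had less Sqle than BMDC without LPS (−1.05 ± 0.09) and more with LPS (0.39 ± 0.09, edgeR adjusted p = 0.000803).
Lss, which closes the ring system to lanosterol, showed the same turn, with −0.58 ± 0.06 between the cultures without LPS and 0.19 ± 0.06 with LPS (edgeR adjusted p = 0.0085), the latter not called with libraries 2 and 3 summed (edgeR adjusted p = 0.0659). Its level was 33.2, 30.95 and 32.2 CPM in BMDC and 21.7, 18.9 and 19.3 CPM in BMDC with LPS. The TolDC means were 21.4 ± 0.873 and 22.9 ± 0.773 CPM, a change of 0.10 ± 0.06 that was not called (edgeR adjusted p = 0.16).

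**Figure D3:**
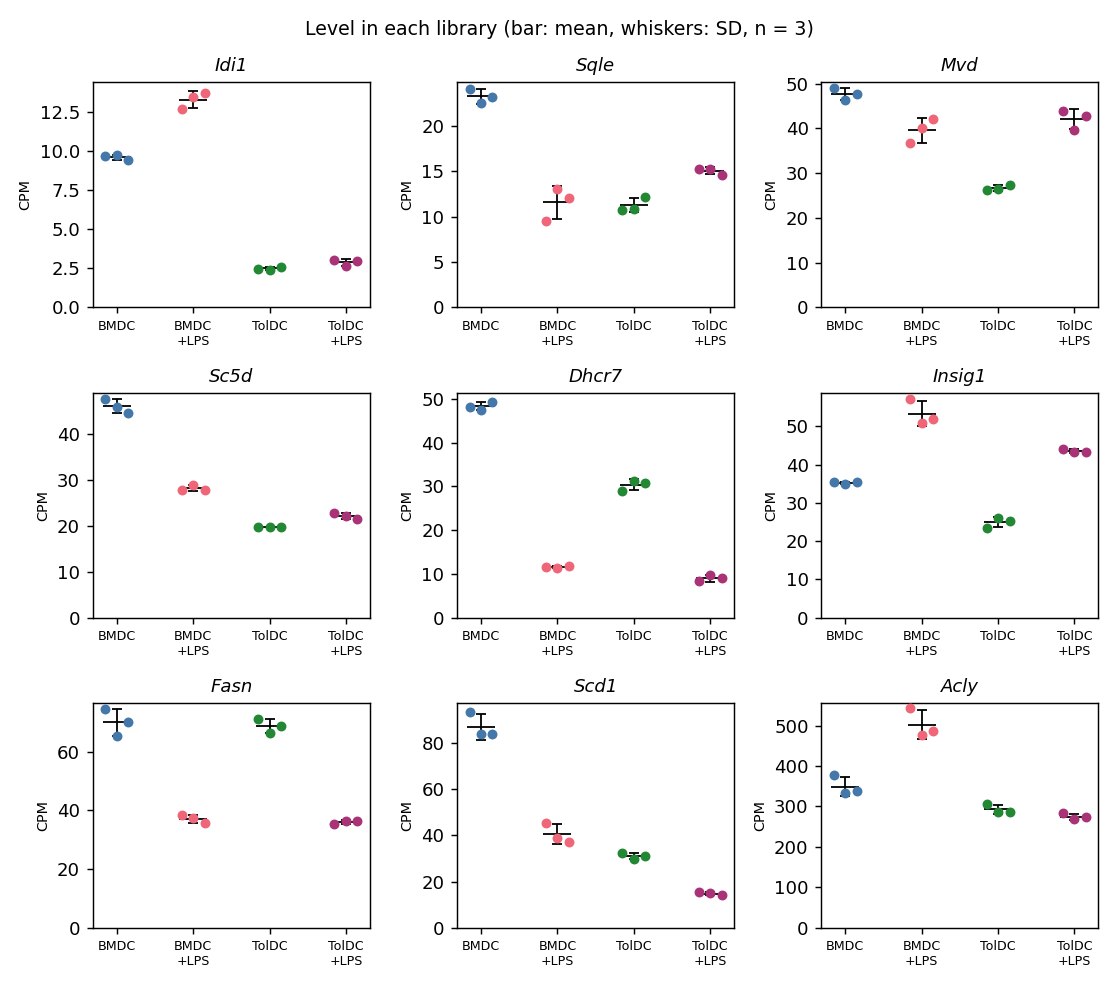
The level of 9 genes in CPM is shown for each of the 12 libraries (points), with the group mean (bar) and SD (whiskers, n = 3), on linear axes from 0. Idi1 separates the cultures, Dhcr7 and Fasn separate the groups with and without LPS, and Sqle, Mvd and Sc5d go down with LPS in BMDC and up in TolDC.

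Of the enzymes that trim lanosterol, Cyp51 and Sc5d were far lower in TolDC than in BMDC without LPS (−1.06 ± 0.09 and −1.22 ± 0.05). Cyp51, the lanosterol demethylase (ENSMUSG00000001467, chromosome 5, 4081145 to 4104746, minus strand), was at 43.2, 45.8 and 43.6 CPM in BMDC and at 17.7, 21.9 and 23.6 CPM in BMDC with LPS. In TolDC it was at 18.9, 21.8 and 22.8 CPM, and at 16.9, 19.8 and 18.6 CPM with LPS. The BMDC libraries stood alone at the top, and the other 3 groups overlapped. Its response to LPS was −1.08 ± 0.09 in BMDC (edgeR adjusted p = 3.27e-08), and the responses differed by 0.87 ± 0.13 (edgeR adjusted p = 6.82e-05). In TolDC the response of −0.20 ± 0.09 was not called (edgeR adjusted p = 0.067), but it was without BMDC with LPS replicate 1 or 3, TolDC replicate 1 or TolDC with LPS replicate 2 (−0.28 to −0.20, edgeR adjusted p = 0.0146 to 0.0445). With LPS the cultures differed by −0.19 ± 0.10, which was called without BMDC with LPS replicate 1 (−0.30, edgeR adjusted p = 0.00247). Cyp51 was among the genes lower in libraries numbered 1 (−0.19).
Sc5d, a sterol desaturase (ENSMUSG00000032018, chromosome 9, 42251595 to 42264256, minus strand), was at 47.6, 45.8 and 44.5 CPM in BMDC, 27.8, 28.9 and 27.9 in BMDC with LPS, 19.7, 19.7 and 19.7 in TolDC, while TolDC with LPS had 22.7, 22.1 and 21.5. No 2 of its groups overlapped. LPS changed it by −0.71 ± 0.05 in BMDC (edgeR adjusted p = 8.06e-11) and by 0.16 ± 0.05 in TolDC (edgeR adjusted p = 0.00612), and the latter call was lost under library-size scaling (edgeR adjusted p = 0.247).

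Dhcr7, the reductase that makes cholesterol from the sterol that is also the precursor of vitamin D, had the largest response to LPS. Dhcr7 (ENSMUSG00000058454, chromosome 7, 143823145 to 143848410, plus strand) was at 48.2, 47.5 and 49.4 CPM in BMDC and at 11.6, 11.4 and 11.9 CPM in BMDC with LPS. Levels in TolDC were 29.0, 31.3 and 30.9 CPM, and 8.26, 9.79 and 8.97 CPM with LPS. No groups overlapped, and both LPS groups lay below both groups without LPS. LPS lowered it 4.16-fold in BMDC (−2.06 ± 0.06, edgeR adjusted p = 5.29e-16) and 3.38-fold in TolDC (−1.76 ± 0.06, edgeR adjusted p = 7.2e-15). Untreated TolDC had 1.59-fold less than BMDC (−0.67 ± 0.05, edgeR adjusted p = 3.79e-09).

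Transcripts of the other enzymes of the late steps fell with LPS in BMDC. Nsdhl, a sterol dehydrogenase, fell with LPS by −0.76 ± 0.08 in BMDC and −0.46 ± 0.08 in TolDC. Hsd17b7, a sterol ketoreductase, fell by −0.68 ± 0.10 and −0.37 ± 0.10, and was lower in TolDC both without (−0.96 ± 0.10) and with LPS (−0.65 ± 0.10). Ebp, a sterol isomerase, fell with LPS by −0.46 ± 0.04 and −0.33 ± 0.04, and its difference between the cultures was not called without LPS (−0.06 ± 0.04, edgeR adjusted p = 0.231) or with it (0.07 ± 0.04, edgeR adjusted p = 0.158). The methylsterol oxidase Msmo1 fell in BMDC with LPS (−0.24 ± 0.04) and was lower in TolDC without LPS (−0.68 ± 0.04) and with LPS (−0.38 ± 0.04). Tm7sf2, a sterol reductase whose gene overlaps Vps51 on the same strand, was called lower in all 4 comparisons (−0.39 to −0.36). Each of these Tm7sf2 calls was lost without 1 library. For LPS in BMDC it was BMDC replicate 2 (edgeR adjusted p = 0.0622), and for LPS in TolDC it was TolDC with LPS replicate 3 (edgeR adjusted p = 0.0969). Between the cultures without LPS it was BMDC replicate 2 or TolDC replicate 1 (edgeR adjusted p = 0.0551 to 0.0894), and with LPS it was BMDC with LPS replicate 2 or TolDC with LPS replicate 2 or 3 (edgeR adjusted p = 0.055 to 0.132).

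Stard4, a carrier that moves sterols between membranes, went the other way in the comparison of responses. Stard4 was at 41.3, 41.9 and 39.9 CPM in BMDC, 29.6, 31.6 and 29.8 in BMDC with LPS, 24.1, 28.0 and 25.7 in TolDC, while TolDC with LPS had 13.5, 14.8 and 15.5. It fell with LPS by −0.44 ± 0.06 in BMDC (edgeR adjusted p = 2.38e-06) and by −0.82 ± 0.06 in TolDC (edgeR adjusted p = 1.12e-09), and the responses differed by −0.39 ± 0.09 (edgeR adjusted p = 0.00147). Its groups did not overlap.

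The regulators did not move as a block. Srebf2, which encodes SREBP2 (ENSMUSG00000022463, chromosome 15, 82147181 to 82205379, plus strand), was at 149, 157 and 164 CPM in BMDC, 131, 140.1 and 140.3 in BMDC with LPS, 89.8, 95.4 and 93.7 in TolDC, while TolDC with LPS had 97.5, 101 and 99.5. Both TolDC groups lay below both BMDC groups, by −0.75 ± 0.04 without LPS (edgeR adjusted p = 2.24e-11) and −0.46 ± 0.04 with LPS (edgeR adjusted p = 1.78e-08). In TolDC its LPS change of 0.10 ± 0.04 was not called (edgeR adjusted p = 0.0509), but was without BMDC replicate 1 or 3, BMDC with LPS replicate 1, TolDC replicate 2 or TolDC with LPS replicate 1 (0.10 to 0.12, edgeR adjusted p = 0.0301 to 0.0479). Srebf1, which encodes SREBP1, lay between 62.6 and 75.6 CPM in all 12 libraries. It was higher in TolDC by 0.14 ± 0.04 without LPS (edgeR adjusted p = 0.00501, but 0.079 with libraries 2 and 3 summed) and 0.12 ± 0.04 with LPS (edgeR adjusted p = 0.0173), and the latter call was lost without BMDC with LPS replicate 1 or TolDC with LPS replicate 1 (edgeR adjusted p = 0.0524 to 0.092). The counts join all Srebf1 transcripts, so its isoforms were not told apart.

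Insig1, the sterol-regulated anchor of SCAP, rose with LPS in both cultures. Insig1 (ENSMUSG00000045294, chromosome 5, 28071363 to 28078662, plus strand) was at 35.3, 34.8 and 35.4 CPM in BMDC, 57.1, 51.0 and 51.8 in BMDC with LPS, 23.5, 26.1 and 25.1 in TolDC, while TolDC with LPS had 44.1, 43.3 and 43.2. No groups overlapped. The rise was 1.52-fold in BMDC (0.60 ± 0.05, edgeR adjusted p = 2.57e-09) and 1.75-fold in TolDC (0.81 ± 0.05, edgeR adjusted p = 5.71e-11), while TolDC had less than BMDC without LPS (−0.50 ± 0.05, edgeR adjusted p = 1.46e-07). Insig2, its paralog, rose by 0.19 ± 0.06 and 0.34 ± 0.06 with LPS, and the rise in BMDC was not called under library-size scaling (edgeR adjusted p = 0.0591). The difference of the Insig2 responses (0.15 ± 0.08) was not called with all 12 libraries. With 1 library left out, it was called only without TolDC replicate 2 (0.21, edgeR adjusted p = 0.0365). Scap rose with LPS in BMDC, from 72.1, 69.0 and 69.9 CPM to 93.0, 85.5 and 83.2 CPM (0.31 ± 0.05, edgeR adjusted p = 1.75e-05). In TolDC it was at 74.9, 67.9 and 67.3 CPM without LPS and at 66.5, 62.2 and 62.3 CPM with it (−0.14 ± 0.05, edgeR adjusted p = 0.0198), and this call was lost without TolDC replicate 1 or TolDC with LPS replicate 2 or 3 (edgeR adjusted p = 0.0663 to 0.139).

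In the fatty acid branch, Fasn followed LPS and not the culture. Fasn, the fatty acid synthase (ENSMUSG00000025153, chromosome 11, 120805846 to 120824547, minus strand), was at 74.6, 65.4 and 70.1 CPM in BMDC and 71.0, 66.3 and 68.6 CPM in TolDC. With LPS it was at 38.3, 37.2 and 35.8 CPM in BMDC and 35.3, 36.5 and 36.2 CPM in TolDC. The cultures overlapped at each state, and the groups with LPS lay below the groups without. LPS lowered it by −0.91 ± 0.05 in BMDC (edgeR adjusted p = 5.2e-12) and −0.93 ± 0.05 in TolDC (edgeR adjusted p = 3.29e-12), and the difference between responses was −0.02 ± 0.07 (edgeR adjusted p = 0.87). The cultures differed by −0.03 ± 0.05 without LPS (edgeR adjusted p = 0.63) and −0.04 ± 0.05 with it (edgeR adjusted p = 0.448).

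Scd1, which introduces the double bond of oleic acid, was lower with LPS and lower in TolDC. Scd1 (ENSMUSG00000037071, chromosome 19, 44394455 to 44407879, minus strand) was at 93.5, 83.9 and 83.8 CPM in BMDC, 45.5, 38.8 and 37.3 in BMDC with LPS, 32.4, 29.9 and 30.9 in TolDC, while TolDC with LPS had 15.3, 15.1 and 14. No groups overlapped. LPS lowered it 2.14-fold in BMDC (−1.10 ± 0.07, edgeR adjusted p = 6.03e-11) and 2.10-fold in TolDC (−1.07 ± 0.07, edgeR adjusted p = 5.5e-10). TolDC had 2.80-fold less than BMDC without LPS (−1.49 ± 0.07, edgeR adjusted p = 2.61e-12) and 2.75-fold less with it (−1.46 ± 0.07, edgeR adjusted p = 1e-11). Scd2, its neighbour on the same chromosome and the more abundant desaturase per length of transcript (79.4 against 17.8 RPKM in BMDC), was lower by −0.54 ± 0.05 with LPS in BMDC and by −0.86 ± 0.05 in TolDC. Between the cultures Scd2 differed by −0.21 ± 0.05 without LPS and −0.53 ± 0.05 with it. Scd1 shares 4.66% of its 50-base words with genes elsewhere, mainly Scd2, and Scd2 shares 3.79%, mainly with Scd1.

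Acly, which makes the acetyl-CoA used by both branches, rose with LPS in BMDC. Acly (ENSMUSG00000020917, chromosome 11, 100476353 to 100528000, minus strand) was at 377, 333 and 337 CPM in BMDC, 543, 478 and 488 in BMDC with LPS, 307, 287 and 287 in TolDC, while TolDC with LPS had 283, 268 and 273. The BMDC libraries with LPS stood above the rest. The rise was 0.53 ± 0.05 (edgeR adjusted p = 5.14e-08), the change in TolDC was −0.10 ± 0.05 (edgeR adjusted p = 0.116), and the responses differed by −0.62 ± 0.08 (edgeR adjusted p = 2.56e-06). With LPS, TolDC had 1.83-fold less than BMDC (−0.87 ± 0.05, edgeR adjusted p = 7.27e-11). Acaca, the acetyl-CoA carboxylase that commits carbon to fatty acids, fell with LPS by −0.39 ± 0.06 and −0.23 ± 0.06 and was lower in TolDC by −0.39 ± 0.06 without LPS and −0.23 ± 0.06 with LPS. Acaca shares 52.6% of its words with genes elsewhere, mainly Gm5182, so its level is uncertain.

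Elovl6, which lengthens palmitate, was near the lower end of what was counted. It was at 0.741, 1.07 and 0.990 CPM in BMDC, 0.281, 1.06 and 0.809 in BMDC with LPS, 1.27, 1.59 and 2.15 in TolDC, while TolDC with LPS had 0.392, 1.01 and 0.842. Libraries numbered 1 were lower than the others in each group. LPS lowered it in TolDC (−1.16 ± 0.35, edgeR adjusted p = 0.0072), a call lost with libraries 2 and 3 summed (edgeR adjusted p = 0.0623). Elovl6 was called higher in TolDC than in BMDC without LPS (0.85 ± 0.35, edgeR adjusted p = 0.0449). That call was lost without any 1 of BMDC replicates 1, 2 and 3, BMDC with LPS replicate 3, TolDC replicates 2 and 3 and TolDC with LPS replicate 3 (0.61 to 0.97, edgeR adjusted p = 0.0567 to 0.199), and with DESeq2 and limma-voom. The difference of its responses (−0.72 ± 0.54) was not called with all 12 libraries. With 1 library left out, it was called only without BMDC with LPS replicate 1 (−1.15, edgeR adjusted p = 0.0497).

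Set side by side, the groups fell in 1 order on both scales for the sterol branch, while the order in the fatty acid branch depended on the scale. The mean log2 CPM of the 20 sterol genes was 4.50 to 4.55 in BMDC, 3.95 to 4.05 in BMDC with LPS, 3.75 to 3.80 in TolDC and 3.60 to 3.63 in TolDC with LPS. For the 6 fatty acid genes the ranges were 5.69 to 5.72, 5.14 to 5.29, 5.42 to 5.48 and 4.62 to 4.79. Added over these 6 genes, the level was 930 to 1027 CPM in BMDC, 853 to 962 in BMDC with LPS, 767 to 823 in TolDC and 535 to 563 in TolDC with LPS. TolDC thus lay above BMDC with LPS on the mean log2 scale, where the scarce Elovl6 weighs as much as any gene, and below it in summed CPM. These values describe gene lists and were not tested. For the regulators the ranges were 5.83 to 5.86, 6.01 to 6.05, 5.60 to 5.67 and 5.82 to 5.87. In the sterol branch, 3 of 20 genes were called lower with LPS in BMDC and higher in TolDC (Mvd, Sqle and Sc5d). The Sc5d rise in TolDC was not called under library-size scaling. In the fatty acid branch 0 of 6 genes had such opposite calls. The share of all genes with opposite calls was not computed, so these counts do not set the branches apart.

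**Figure D4:**
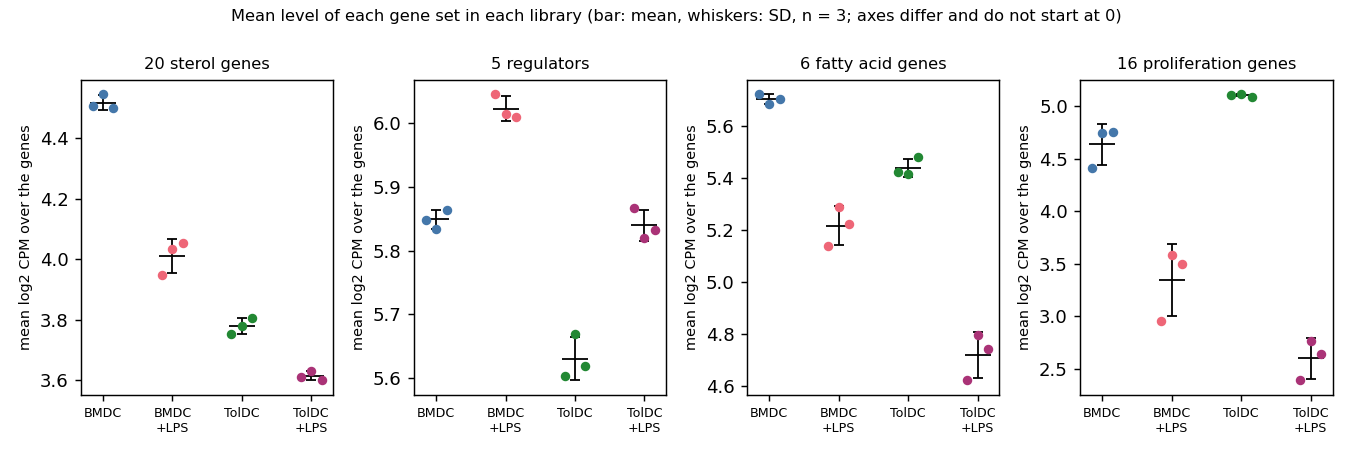
The mean log2 CPM over the genes of each set is plotted for each library (points), with the group mean (bar) and SD (whiskers, n = 3), and the axes differ between panels and do not start at 0. The sterol genes step down from BMDC through BMDC with LPS and TolDC to TolDC with LPS, while the fatty acid and proliferation genes are higher in both groups without LPS than in the groups with LPS on this log2 scale. In summed CPM, which is not plotted, the fatty acid genes are higher in BMDC with LPS (853 to 962) than in TolDC (767 to 823).

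Per length of transcript, the branches differed widely in level. In BMDC, Scd2 (79.4 RPKM) and Acly (66.1 RPKM) were the most abundant of the 31 genes, followed by Mvd (25.7), Ebp (23.2) and Srebf2 (21.8). Elovl6 (0.145), Fdps (0.926) and Acaca (1.28) were the lowest. These levels use the summed exon length of each gene and do not account for reads lost to copies elsewhere.

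Related genes gave mixed counts, to be read against the shares of all genes: 32.0% higher and 30.4% lower in TolDC without LPS, and 36.7% and 36.4% with LPS in BMDC. Of 14 matched genes of SREBP processing and sterol sensing, 6 were higher and 5 lower in TolDC without LPS (median log2 change 0.01), and 5 were higher and 3 lower with LPS in BMDC. Erlin1, an endoplasmic reticulum protein of sterol sensing, rose with LPS by 1.13 ± 0.07 in BMDC and 1.15 ± 0.06 in TolDC. Of 15 genes that use isoprenoids, 5 were higher and 4 lower in TolDC without LPS (median 0.03), with Rabggta, a subunit of the geranylgeranyl transferase of Rab proteins, at 0.74 ± 0.08. With LPS in BMDC the same list gave 5 higher and 6 lower, among them Fntb, the farnesyltransferase beta subunit (−1.04 ± 0.09).

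Further fatty acid genes gave 2 higher and 7 lower of 20 tested in TolDC without LPS, where 32.0% of all genes were higher and 30.4% lower. With LPS in both cultures, 8 were higher and 6 lower in TolDC (median 0.01), where 34.3% of all genes were higher and 33.7% lower. For LPS in BMDC, 5 were higher and 10 lower (median −0.15), where 36.7% were higher and 36.4% lower. Acss2, which makes acetyl-CoA from acetate, was at 12.8 ± 0.433 CPM in BMDC and 43.4 ± 2.34 CPM in TolDC, a log2 change of 1.77 ± 0.06 (edgeR adjusted p = 2.93e-14), and 2.42 ± 0.07 with LPS. Acly, the other source of cytosolic acetyl-CoA, was lower in TolDC in both comparisons. Acsl1, which activates long-chain fatty acids, rose with LPS from 50.9 ± 4.55 to 643 ± 94.8 CPM in BMDC and from 26.6 ± 1.42 to 529.6 ± 104 CPM in TolDC. Elovl5, an elongase of polyunsaturated fatty acids, fell by −1.22 ± 0.04 and −0.89 ± 0.04. Of the 16 glycerolipid genes, 6 were higher and 6 lower in TolDC without LPS. Agpat3, an acyltransferase of phosphatidic acid synthesis, was at 21.7 ± 0.678 CPM in BMDC and 136 ± 4.41 CPM in TolDC (2.64 ± 0.06, edgeR adjusted p = 3.65e-16). Plin2, the coat protein of lipid droplets, fell with LPS in BMDC from 509.7 ± 15.0 to 246 ± 8.10 CPM and was higher in TolDC with LPS (523 ± 8.72 CPM) than in BMDC with LPS (1.09 ± 0.04, edgeR adjusted p = 1.06e-14).

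Genes of liver X receptors and sterol export or storage were lower in TolDC without LPS in 11 of 15 cases and higher in 3 (median −0.37), against 30.4% of all genes lower and 32.0% higher. Abca1, the cholesterol exporter, was at 12.1 ± 1.91 CPM in BMDC and 0.757 ± 0.1001 CPM in TolDC (−3.995 ± 0.16, edgeR adjusted p = 3.1e-13). It rose with LPS to 38.2 ± 1.67 CPM in BMDC and to 17.4 ± 1.78 CPM in TolDC. Nr1h3, which encodes a liver X receptor, was at 6.08 ± 0.664, 14.9 ± 0.879, 2.32 ± 0.134 and 8.45 ± 0.559 CPM in BMDC, BMDC with LPS, TolDC and TolDC with LPS. Ch25h, which makes the oxysterol 25-hydroxycholesterol, was at 7.88 ± 0.452, 3.69 ± 0.300, 9.71 ± 0.507 and 26.8 ± 0.977 CPM in the same order, so that LPS raised it in TolDC (1.46 ± 0.07, edgeR adjusted p = 1.09e-12) and TolDC with LPS had 2.85 ± 0.08 more than BMDC with LPS on the log2 scale. Lipa, the lysosomal lipase that frees cholesterol from esters, fell with LPS in BMDC from 758 ± 20.7 to 272 ± 6.89 CPM.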

How the data were processed

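Messenger RNA was measured in 12 libraries, 3 in each of 4 groups. Per the labels' protocols, the ISOLATE II RNA Mini Kit was used for RNA and a stranded ligation kit for the libraries. Per the submitters' processing notes, cutadapt, STAR, edgeR and limma were used with mm10 (GRCm38), with no version or annotation stated. The authors deposited a table of whole-number counts for each library, unstranded in column 2 and per strand in columns 3 and 4. Column 4, whose total was 35.2 to 37.3 times that of column 3, was used, with column 2 as an alternative. Rows that name no gene were left out, and 79.3% to 80.6% of the reads in a table were assigned to genes. The aligner does not count reads that match several places. Of 31054 identifiers, 31011 were matched to GENCODE M21, which gave symbols and positions.

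Genes were filtered with filterByExpr, scaled with TMM (factors 0.945 to 1.04) and fitted over all 12 libraries with a mean per group by edgeR's quasi-likelihood test (edgeR 4.0.16, limma 3.58.1, DESeq2 1.42.0, R 4.3.3), so 1 estimate of the spread served all groups. Within each of 5 contrasts the p-values of 13141 genes were adjusted by Benjamini-Hochberg, and a gene was called at an adjusted p below 0.05. Lists are described by counts and medians, with no test of the list. The 31 genes and the other lists were chosen with earlier results of these data known. All 31 may be named, and of each related list up to 3 called genes per contrast, those with the largest change among genes whose higher group mean was 5 CPM or more. The alternatives were library-size scaling, DESeq2, limma-voom, no filter, column 2, the compared groups alone, a replicate block, each library left out, no libraries numbered 1, and libraries 2 and 3 summed.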

Additional observations from a re-analysis of the deposited data

Results flagged for a closer look

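For 16 of the 31 genes the response to LPS differed between TolDC and BMDC by the edgeR test of the difference itself (log2 response in TolDC minus that in BMDC, 3 libraries per group), in a comparison where 44.4% of all genes were called. In the sterol branch the difference was 1.44 for Sqle, 0.93 for Mvd, 0.87 for Cyp51, 0.87 for Sc5d, 0.80 for Fdps, 0.78 for Lss, 0.39 for Acat2, 0.30 for Msmo1, 0.30 for Nsdhl, 0.30 for Dhcr7 and −0.39 for Stard4. Among the regulators it was 0.29 for Srebf2, 0.20 for Insig1 and −0.45 for Scap, and in the fatty acid branch −0.62 for Acly and −0.31 for Scd2.

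Of these, 4 calls were lost when 1 library was left out. With libraries 2 and 3 summed, those 4 and that of Dhcr7 (edgeR adjusted p = 0.00882) were not called (edgeR adjusted p = 0.0508 for Dhcr7 to 0.164 for Acat2). Acat2 (edgeR adjusted p = 0.03) lost its call without BMDC replicate 2 or 3, BMDC with LPS replicate 1, TolDC replicate 3 or TolDC with LPS replicate 2 or 3 (0.29 to 0.38, edgeR adjusted p = 0.0502 to 0.101). Fdps (edgeR adjusted p = 0.0217) lost it without BMDC replicate 2, BMDC with LPS replicate 1, TolDC replicate 1 or 2, or TolDC with LPS replicate 3 (0.68 to 0.72, edgeR adjusted p = 0.052 to 0.0674). Nsdhl (edgeR adjusted p = 0.0347) lost it without BMDC replicate 2 or 3, BMDC with LPS replicate 1 or 3, TolDC replicate 2 or 3, or TolDC with LPS replicate 1 or 2 (0.25 to 0.31, edgeR adjusted p = 0.0532 to 0.0937). Insig1 (edgeR adjusted p = 0.0267) lost it without BMDC with LPS replicate 2 or 3 or TolDC replicate 1 (0.16 to 0.18, edgeR adjusted p = 0.0633 to 0.0802). Mvk, which was not called (0.29, edgeR adjusted p = 0.0604), was called without BMDC replicate 1 (0.35, edgeR adjusted p = 0.0278).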

How the results depend on the processing

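Of 155 log2 changes (31 genes in 5 contrasts), 114 were called, 92 of these stayed called with the same sign under the 21 alternatives that could be run, and 0 changed sign. Leaving out 1 library lost 16 calls and gained 9. No total of called genes in a comparison, both directions together, moved by 1.5 times. The compared groups alone give no value for the difference of responses. With libraries numbered 2 and 3 summed, a setting chosen after seeing the data, 17 calls were lost: of the 31 genes, those lower with LPS in TolDC went from 14 to 9, those with a positive difference from 12 to 7, and those higher in TolDC from 3 to 0 without LPS and from 4 to 2 with it. Groups of 3 libraries limit what small changes could be called, and Elovl6 and Fdps rest on the fewest reads.

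Some values that were not called changed sign. With library size alone these were, for Ggps1, −0.033 (LPS in BMDC) and −0.015 (TolDC with LPS), for LPS in TolDC, Fdft1 at −0.0013, Lss at −0.0029, Msmo1 at −0.035 and Srebf2 at −0.00079, and for the difference of responses, Tm7sf2 at −0.021. For TolDC against BMDC with LPS, Ggps1 was −0.012 with DESeq2, −0.0015 with the compared groups alone and −0.090 without libraries numbered 1, which also gave Elovl6 at −0.030 there and Tm7sf2 at −0.22 for the difference. limma-voom gave Tm7sf2 at −0.021 there. Without the filter, Mvk was 0.010 with LPS, and the differences of Srebf1 and Fasn were 0.0012 and 0.012. With libraries 2 and 3 summed, Insig2 was −0.011 without LPS, Mvk 0.0047 with LPS and the difference of Srebf1 0.0025. The cause was not tested.

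Leaving out each library in turn, the ranges that crossed 0 were −0.072 to 0.019 for Hmgcs1 with LPS in TolDC. Between the cultures without LPS they were −0.057 to 0.022 for Scap, −0.035 to 0.058 for Insig2 and −0.076 to 0.021 for Fasn. With LPS they were −0.056 to 0.025 for Mvk, −0.057 to 0.061 for Ggps1 and −0.31 to 0.53 for Elovl6. For the difference they were −0.080 to 0.0011 for Fdft1, −0.17 to 0.13 for Tm7sf2, −0.066 to 0.031 for Fasn and −0.031 to 0.12 for Scd1.

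Same-numbered libraries deviated together above a correlation of 0.1 in 17 of 18 pairs (0.091 to 0.466), 1 short of all. Pairs of different numbers lay between −0.372 and 0.202, so passing 0.1 does not by itself mark a shared number. The numbers were not taken as pairs, and 6 of 12 libraries correlated best with their own number in all other groups. The replicate block gave 28, 23, 27, 24 and 17 called genes of the 31 for LPS in BMDC, LPS in TolDC, TolDC without LPS, TolDC with LPS and the difference, against 28, 20, 27, 23 and 16, the added calls being Cyp51, Srebf2 and Acly for LPS in TolDC, Cyp51 for TolDC with LPS and Hmgcs1 for the difference.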
